A study of Mus musculus with 2 samples.

Results

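The tumour necrosis factor (TNF) superfamily ligands and receptors described here were the 32 genes, of 27998 in the deposited count tables, whose mouse symbol begins with Tnfsf or Tnfrsf followed by a digit. They comprised 12 rows of the ligand series, of which Tnfsf13os is an antisense RNA gene, and 20 receptor rows, and they were chosen by symbol and not by their counts. The assay was single-cell RNA sequencing with 10x Genomics 3′ chemistry version 2, run on cells taken from tumours of C57BL/6N PyMT mice after positive selection for CD11c. CD11c is the integrin encoded by Itgax, and PyMT mice carry the polyoma middle T antigen and develop mammary tumours. The labels held a single group, WT, of 2 libraries, replicate 1 and replicate 2, and gave no treatment, age, promoter of the transgene or pooling of animals. Comparisons were therefore made between cell classes, each seen in both libraries.

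Unique molecular identifiers (UMIs) tag each captured RNA molecule, and their totals were 17369071 in replicate 1 and 13317214 in replicate 2. After filtering, 1898 and 1214 cells remained, with medians of 5649 and 7141.5 UMIs, and the libraries shared 2 cell barcodes. The fit removed the overall offset between the libraries, so the p-values measure only how far class differences varied between them. Whether different animals supplied the libraries is not given in the sources used here, so that variation may be technical. Intervals and limits cover counting error only. Every one of the 32 genes had at least 1 UMI in the kept cells of replicate 1, and 31 did in replicate 2. At least 30 UMIs over both libraries were found for 19 genes, and 19 passed the filter on low counts that preceded testing. These sets differ by Tnfrsf11b, which passed the filter with 20 UMIs, and Tnfrsf23, which did not with 150.

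TNF superfamily ligands are mostly trimeric membrane proteins, some of them shed, that cluster their receptors on a neighbouring cell. One branch of receptors carries a death domain and can start apoptosis. Another recruits TRAF adaptors, which feed the NF-κB pathways and sustain activated lymphocytes, dendritic cells and macrophages. Well-known pairs include OX40 (Tnfrsf4) with OX40 ligand (Tnfsf4), 4-1BB (Tnfrsf9) with its ligand (Tnfsf9), and the B cell survival factor BAFF (Tnfsf13b) with TACI (Tnfrsf13b).

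Classes were rebuilt from clusters by fixed markers and carry the suffix "like", since no authors' annotation was used. No TNF superfamily gene could build a cluster. Dendritic classes were mature DC-like (Ccr7, Fscn1, Ccl22; 48 and 25 cells in replicate 1 and replicate 2), cDC1-like (Xcr1, Clec9a; 112 and 62) and cDC2-like (Cd209a, Clec10a; 167 and 191), where cDC stands for conventional dendritic cell. Ccr7 was also among the leading genes of the cDC2-like cluster, while all 12 mature DC markers were raised in the mature DC-like one. There were 212 and 116 monocyte-like cells, 317 and 67 resident macrophage-like cells (Folr2, Cbr2) and 655 and 495 macrophage-like cells (C1qa, Adgre1). Further classes were lymphocyte-like cells of the T and NK lineages (58 and 48), epithelial-like cells (110 and 42) and fibroblast-like cells (23 and 23). The labels give the cell type as myeloid, which these 3 classes are not by their markers. Itgax stood at 107.8 and 83.8 CPM (UMIs per 1000000 UMIs of a class sum) in lymphocyte-like, 10.4 and 1.97 CPM in epithelial-like and 13.05 and 13.85 CPM in fibroblast-like cells, against 136.1 and 165.8 CPM in macrophage-like cells. The monocyte-like class rested on Ccr2, Fn1, Ear2, Retnla and Lyz1, 5 of its 12 markers. Ly6c2, a defining gene of classical monocytes, was at 3.96 and 1.004 CPM there, against 150.8 and 48.7 CPM in macrophage-like cells, and Chil3 was at 0. Free RNA, profiled in barcodes of at most 50 UMIs, made up at most 0.899% to 3.42% of the class sums outside epithelial-like cells.

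**Figure D1:**
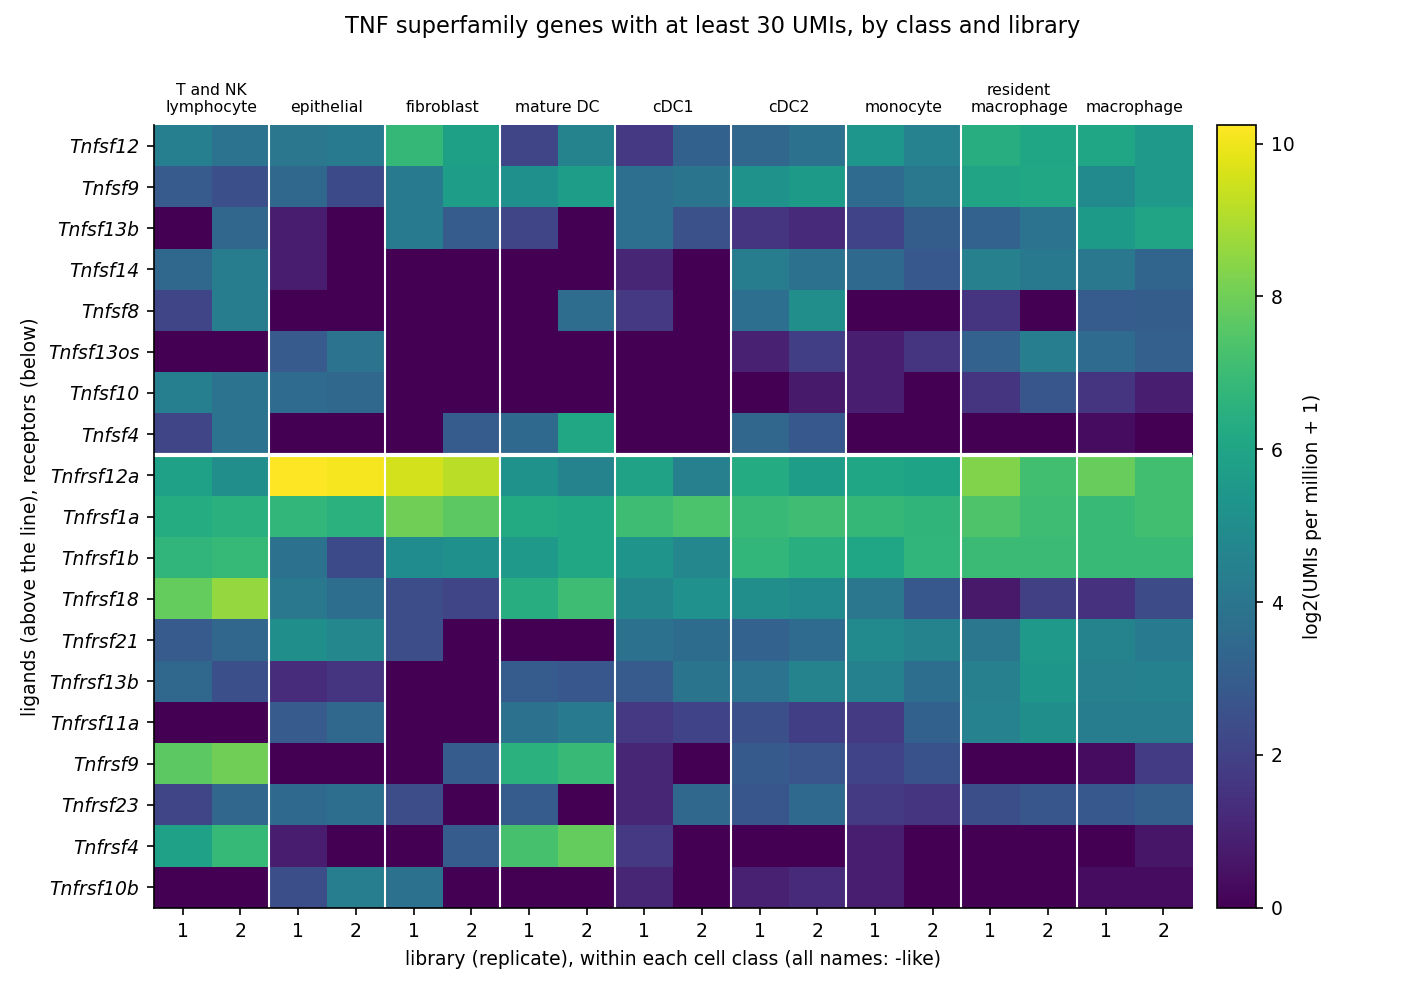
Level of the 19 TNF superfamily genes with at least 30 UMIs, as log2(CPM + 1), in each class (column pairs) and library (1 and 2 within a pair), with ligands above the white line and receptors below. Tnfrsf4, Tnfrsf9 and Tnfrsf18 are bright in lymphocyte-like and mature DC-like columns, Tnfrsf12a in epithelial-like and fibroblast-like columns, and Tnfrsf1a in every class.

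Levels in CPM do not scale with gene length, because each molecule is read at its 3′ end. The most abundant gene was Tnfrsf12a, with 5216 UMIs over all kept cells, followed by Tnfrsf1a with 2912 and Tnfrsf1b with 2003. Among ligands Tnfsf12 had 840 UMIs, Tnfsf9 had 685 and Tnfsf13b had 576. The other genes past 30 UMIs were Tnfrsf18 (455), Tnfrsf21 (398), Tnfrsf13b (375), Tnfrsf11a (273), Tnfsf14 (228), Tnfrsf9 (203), Tnfsf8 (155), Tnfrsf23 (150), Tnfrsf4 (140), Tnfsf13os (125), Tnfsf10 (51), Tnfsf4 (42) and Tnfrsf10b (32). The remaining 13 had few molecules in total: Tnfrsf13c 28, Tnfrsf11b 20, Tnfrsf17 17, Tnfsf18 17, Tnfrsf22 16, Tnfsf11 14, Tnfsf15 14, Tnfrsf26 10, Tnfrsf25 9, Tnfrsf14 6, Tnfrsf8 4, Tnfrsf19 4 and Tnfsf13 2. At this depth such totals leave many classes at 0, which does not show that a gene is absent.

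Relative to cDC, mature DC-like cells carried transcripts of 3 co-stimulatory receptors best known from activated T cells. Tnfrsf4, the gene of OX40, stood at 153.4 and 225.5 CPM in mature DC-like cells (45 and 39 UMIs). It had 2.24 and 0 CPM in cDC1-like cells (2 and 0 UMIs) and 0 UMIs in cDC2-like cells of both libraries, where 3 counts would be 2.81 and 2.045 CPM. Both mature DC-like libraries were thus above every cDC library, with a pooled ratio of 365 (95% counting interval 97.8 to 3060) and an adjusted p of 1.45e-14 in the edgeR quasi-likelihood test with Benjamini-Hochberg adjustment. Tnfrsf9, the gene of 4-1BB, had 92.1 and 121.4 CPM in mature DC-like cells, against 1.12 and 0 CPM in cDC1-like and 6.56 and 5.45 CPM in cDC2-like cells. Its log2 fold change against the mean of the cDC classes was 5.57 (SE 0.52, adjusted p = 3.57e-11). Tnfrsf18, the gene of GITR, had 81.8 and 133 CPM in mature DC-like cells, against 24.7 and 35.35 CPM in cDC1-like and 32.8 and 28.6 CPM in cDC2-like cells. The groups did not overlap and differed by 1.73 on the log2 scale (SE 0.34, adjusted p = 1.90e-04). These 3 calls were kept under every alternative that gave a test, among them the fit without the filter on low counts. Tnfrsf4 and Tnfrsf9 had passed that filter only through mature DC-like and lymphocyte-like cells, where they were high. Their adjusted p-values are therefore read only beside the counts.

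In this comparison 5 of the 19 genes past the filter were called higher in mature DC-like cells and 2 lower, where a call is an adjusted p under 0.05. Over all 4730 genes tested, which are those kept out of cluster building, 15.0% were called, 7.72% higher and 7.25% lower. The median log2 fold change was −0.40 over the 19 genes and −0.16 over all genes tested.

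Tnfrsf4, Tnfrsf9 and Tnfrsf18 all lie on the plus strand of chromosome 4 in GRCm38, the assembly of mm10. Tnfrsf4 spans 156013843 to 156016612 and Tnfrsf18 spans 156026164 to 156028895, so they are close neighbours, and Tnfrsf9 spans 150914562 to 150946102. Because their transcripts were raised together in mature DC-like cells, the 250 bases before their RefSeq starts (GRCm38.p6, plus strand, 5′ to 3′) are shown, with matches on either strand to the κB consensus and to the AP-1 site TGANTCA in capitals. RefSeq gives 2 starts for Tnfrsf9. The spans above are from GENCODE, and both Tnfrsf9 windows lie inside the Tnfrsf9 span. The Tnfrsf18 window runs past the start of the Tnfrsf18 span.
Tnfrsf4, chr4:156013445-156013694: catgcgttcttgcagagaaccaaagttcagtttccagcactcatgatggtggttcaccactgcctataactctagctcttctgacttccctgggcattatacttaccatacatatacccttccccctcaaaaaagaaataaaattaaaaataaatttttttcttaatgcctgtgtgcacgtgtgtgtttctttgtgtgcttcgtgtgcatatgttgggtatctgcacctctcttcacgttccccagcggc
Tnfrsf9 start 1, chr4:150919905-150920154: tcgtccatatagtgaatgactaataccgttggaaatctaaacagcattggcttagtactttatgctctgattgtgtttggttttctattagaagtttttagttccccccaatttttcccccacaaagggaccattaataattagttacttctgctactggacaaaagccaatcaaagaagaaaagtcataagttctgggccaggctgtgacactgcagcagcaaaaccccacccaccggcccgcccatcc
Tnfrsf9 start 2, chr4:150927749-150927998: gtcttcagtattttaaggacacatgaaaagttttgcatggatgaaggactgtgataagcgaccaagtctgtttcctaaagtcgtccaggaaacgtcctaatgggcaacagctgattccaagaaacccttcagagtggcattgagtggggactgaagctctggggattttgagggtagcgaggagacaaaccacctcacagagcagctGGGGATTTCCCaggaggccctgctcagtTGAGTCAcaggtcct
Tnfrsf18, chr4:156026072-156026321: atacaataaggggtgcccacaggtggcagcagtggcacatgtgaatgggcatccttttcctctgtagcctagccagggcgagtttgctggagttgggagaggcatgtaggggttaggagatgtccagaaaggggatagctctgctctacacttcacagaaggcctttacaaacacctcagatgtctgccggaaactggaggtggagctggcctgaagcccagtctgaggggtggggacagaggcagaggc
The window before the second Tnfrsf9 start held 2 overlapping κB matches and 1 AP-1 match, and the other 3 windows held none. Of 32851 windows of the same length before mouse RefSeq starts, 2382 (7.25%) held a κB match and 2217 (6.75%) held TGANTCA. A match describes the letters of these windows only, and no binding was measured.

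**Figure D2:**
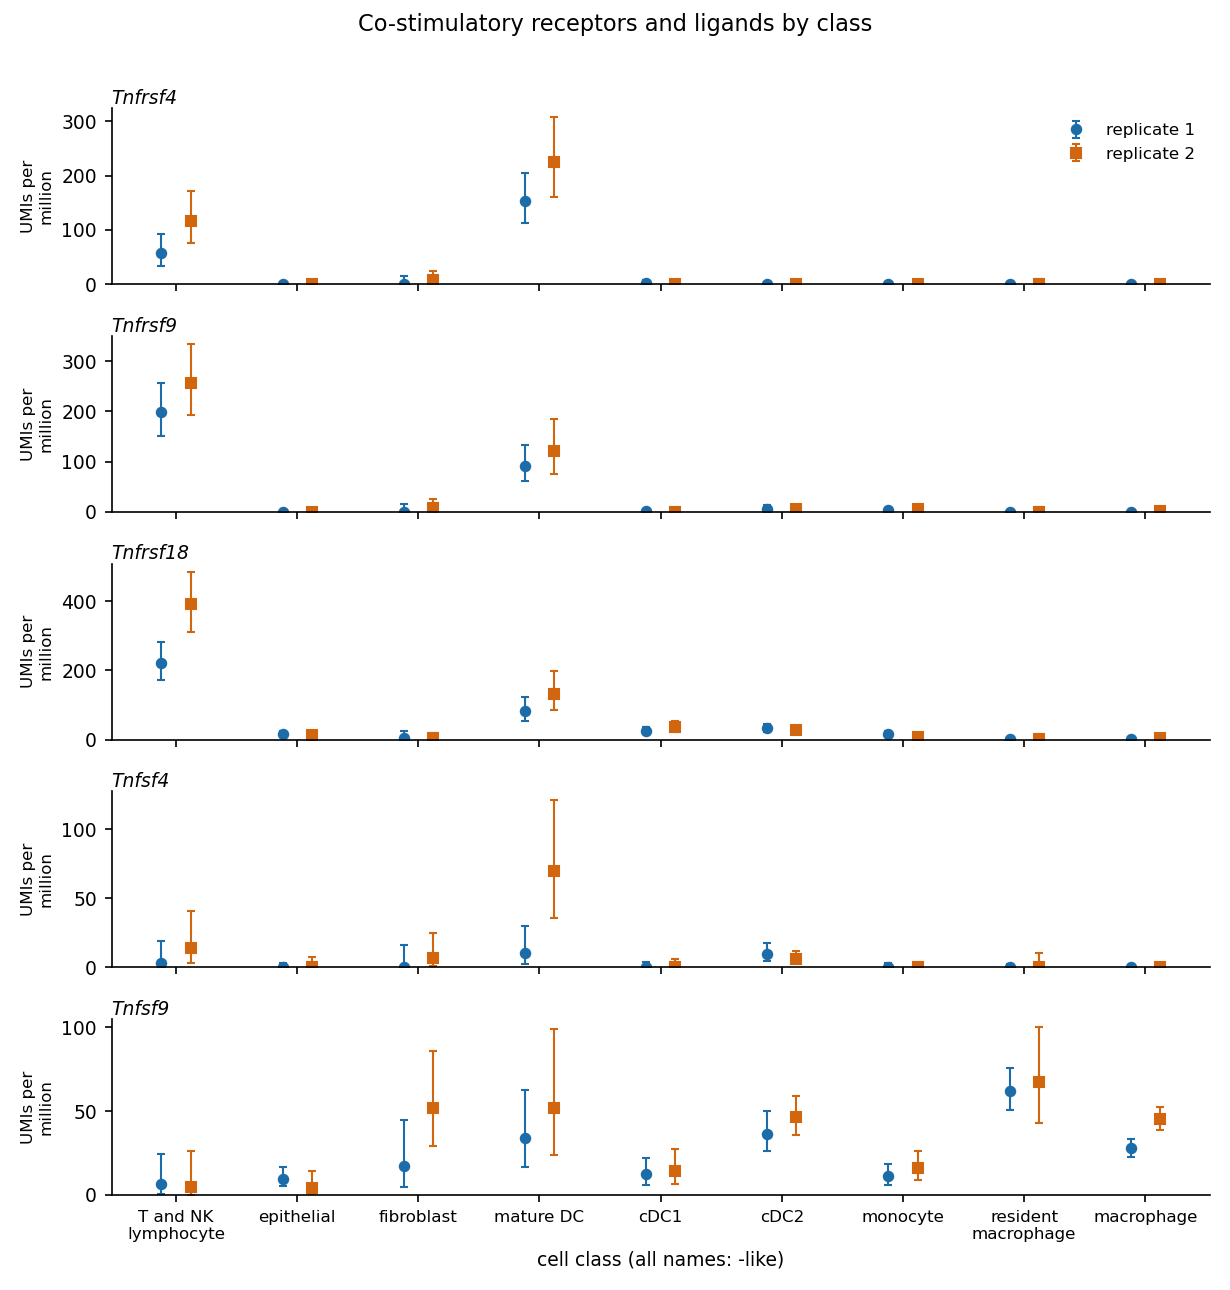
Level in CPM (linear axes) of 3 co-stimulatory receptor genes and 2 ligand genes in 9 classes, with 1 point per library and 95% counting intervals. For Tnfrsf4, Tnfrsf9 and Tnfrsf18 both libraries of lymphocyte-like and of mature DC-like cells lie above every library of the other classes, and Tnfsf4 differs between the mature DC-like libraries.

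The same receptors are T cell genes, so T and NK markers were read in the same cells. Of 14 markers found in the files, 3 had a UMI in mature DC-like cells of replicate 1 (3 UMIs, 10.2 CPM summed) and 1 in replicate 2 (2 UMIs, 11.6 CPM). Cd3e, Nkg7 and Thy1 were among those at 0 in both libraries. Lymphocyte-like cells summed to 4047 and 5311 CPM of these markers. Leaving out each mature DC-like cell with any such UMI kept 46 of 48 and 24 of 25 cells, in which Tnfrsf4 was at 152.1 and 237.5 CPM and Tnfrsf9 at 95.5 and 127.9 CPM. Tnfrsf18 was at 60.1 CPM in those cells of replicate 1, against 81.8 CPM with every cell, and at 127.9 CPM in replicate 2.

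Per cell, 20 of 48 mature DC-like cells of replicate 1 (41.7%) and 11 of 25 of replicate 2 (44.0%) had a Tnfrsf4 UMI. In epithelial-like cells, a type not known for OX40, the counts were 1 of 110 (0.909%) and 0 of 42. Median depth was 5886 and 7268 UMIs in mature DC-like cells and 8580 and 9061.5 UMIs in epithelial-like cells. After each cell was thinned to 1900 UMIs, 11 of 48 (22.9%, exact interval 12.0 to 37.3) and 4 of 25 (16.0%, 4.54 to 36.1) kept a Tnfrsf4 UMI. No thinned epithelial-like cell did, which allows shares of up to 3.30% and 8.41%. At least 1 of the 3 receptors was seen in 32 of 48 and 18 of 25 mature DC-like cells, and all 3 together in 3 and 4 cells.

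Lymphocyte-like cells had the highest Tnfrsf18 and Tnfrsf9 levels of the 9 classes; both genes are induced when T and NK cells are activated. Tnfrsf18 stood at 222.4 and 391 CPM there, above the 81.8 and 133 CPM of mature DC-like cells, and no library of the other classes exceeded 35.35 CPM. Tnfrsf9 was at 198.8 and 256 CPM in lymphocyte-like cells, and both libraries lay above the mature DC-like ones. For Tnfrsf4 the order was the other way, with 57.3 and 116.4 CPM in lymphocyte-like cells, both below the mature DC-like libraries.

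Against the mean of the 6 myeloid classes, lymphocyte-like cells were higher in Tnfrsf18 by 4.40 on the log2 scale (SE 0.25, adjusted p = 2.21e-18). Tnfrsf9 had a pooled ratio of 44.0 (32.8 to 59.1, adjusted p = 1.34e-18) and Tnfrsf4 one of 15.1 (10.2 to 22.0, adjusted p = 1.64e-11). Pooled ratios are given where a class of the comparison had 0 UMIs, and for some genes with few UMIs in a class, since a fitted fold then depends on a prior count. The fourth gene called higher was Tnfsf10, encoding the death ligand TRAIL, at 20.2 and 14.0 CPM in lymphocyte-like cells (6 and 3 UMIs), with a pooled ratio of 16.0 (6.33 to 37.5, adjusted p = 6.99e-04). Tnfrsf9, Tnfrsf4 and Tnfsf10 passed the filter on low counts only through classes in which they were high, lymphocyte-like cells among them. These calls were kept without that filter and are read only beside the counts. Lower were Tnfsf9 (6.74 and 4.66 CPM in lymphocyte-like cells, log2 fold change −2.48, SE 0.66, adjusted p = 0.00525) and Tnfrsf11a, with 0 UMIs in lymphocyte-like cells and 227 in the myeloid classes (adjusted p = 0.0331, lost in DESeq2 and with a per-cell marker gate). Tnfrsf12a was also lower (−0.94, SE 0.33, adjusted p = 0.0373), a call lost in DESeq2, without the library block and without scaling between sums. Beside these 4 genes higher and 3 lower, 18.3% of all genes tested were called, 10.2% higher and 8.03% lower.

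The ligand of OX40 was found beside its receptor. Tnfsf4 had 10.2 and 69.4 CPM in mature DC-like cells (3 and 12 UMIs), 0 UMIs in cDC1-like cells of both libraries and 9.37 and 6.13 CPM in cDC2-like cells. Its pooled ratio between mature DC-like and cDC cells was 6.85 (3.24 to 14.2, adjusted p = 0.00119). Tnfsf4 passed the filter on low counts only through mature DC-like and lymphocyte-like cells, and the call was kept without that filter. The mature DC-like libraries differed from each other, and replicate 1 lay only just above the higher cDC2-like library. In macrophage-like cells there was 1 Tnfsf4 UMI over both libraries, and in monocyte-like and resident macrophage-like cells there was none. Lymphocyte-like cells had 3.37 and 13.96 CPM.

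Tnfsf9, the ligand of 4-1BB, was spread over the myeloid classes. Resident macrophage-like cells were highest at 62.2 and 67.1 CPM, followed by mature DC-like cells (34.1 and 52.0 CPM), cDC2-like cells (36.6 and 46.4 CPM) and macrophage-like cells (27.7 and 45.1 CPM), 3 classes whose libraries overlapped. Fibroblast-like cells were spread at 17.4 and 52.0 CPM. Monocyte-like cells had 11.1 and 16.1 CPM and cDC1-like cells 12.3 and 14.5 CPM. Tnfsf18, the ligand of GITR, had 17 UMIs in all.

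Tnfrsf1a, the gene of TNF receptor 1, was lower in mature DC-like cells than in cDC, at 75.0 and 69.4 CPM in mature DC-like cells, against 132.4 and 162.3 CPM in cDC1-like and 119.1 and 135.0 CPM in cDC2-like cells. The libraries did not overlap (log2 fold change −0.95, SE 0.285, adjusted p = 0.0164), but in DESeq2 the adjusted p was 0.055. Tnfrsf21, the gene of death receptor 6, had 0 UMIs in mature DC-like cells of both libraries, where 3 counts would be 10.2 and 17.35 CPM. That floor is near the 13.5 and 11.25 CPM of cDC1-like and the 8.44 and 10.9 CPM of cDC2-like cells. The edgeR call of Tnfrsf21 (adjusted p = 0.0376) was lost in 5 of 11 alternatives. Tnfrsf11a, encoding RANK, the receptor that drives osteoclast formation and that dendritic cells also carry, had 13.6 and 17.35 CPM in mature DC-like cells on 4 and 3 UMIs. It was at 2.24 and 3.21 CPM in cDC1-like and 4.69 and 2.73 CPM in cDC2-like cells (log2 fold change 2.22, SE 0.78, adjusted p = 0.0462), a call lost without the filter on low counts and without doublet removal. Tnfrsf12a, Tnfrsf1b, Tnfrsf13b, Tnfsf12, Tnfsf13b, Tnfsf14, Tnfsf8, Tnfsf9, Tnfsf10, Tnfsf13os, Tnfrsf10b and Tnfrsf11b were not called between mature DC-like cells and cDC.

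The cDC classes differed in several ligands and in TNF receptor 2. cDC1-like cells had fewer transcripts of Tnfsf14, the gene of LIGHT, which binds the lymphotoxin β receptor, at 1.12 and 0 CPM, against 18.75 and 12.95 CPM in cDC2-like cells. With 1 UMI against 39, the pooled ratio was 0.0429 (0.00106 to 0.254, adjusted p = 1.26e-04). Tnfsf8, encoding CD30 ligand, was at 2.24 and 0 CPM in cDC1-like cells (2 UMIs) and at 12.2 and 32.7 CPM in cDC2-like cells (61 UMIs), with a pooled ratio of 0.0549 (0.0065 to 0.207, adjusted p = 9.21e-04, lost in DESeq2 at 0.0649). Tnfsf9 stood at 12.3 and 14.5 CPM in cDC1-like cells, against 36.6 and 46.4 CPM in cDC2-like cells (log2 fold change −1.67, SE 0.38, adjusted p = 0.00144).

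Tnfrsf1b, the gene of TNF receptor 2, followed the same direction at 38.2 and 25.7 CPM in cDC1-like cells and 107.8 and 87.9 CPM in cDC2-like cells (−1.62, SE 0.28, adjusted p = 3.29e-05). For these 4 genes no library of one class overlapped the other. Tnfsf4, with 0 UMIs in cDC1-like cells and 19 in cDC2-like cells, was called lower (adjusted p = 0.0337) and lost in 4 of 10 alternatives. Tnfsf13b was the 1 gene called higher, at 12.3 and 4.82 CPM in cDC1-like cells (11 and 3 UMIs) and 1.87 and 1.36 CPM in cDC2-like cells (log2 fold change 2.435, SE 0.78, adjusted p = 0.0282), and it was lost in 5 of 11 alternatives. With 1 higher and 5 lower among the 19 genes past the filter, the share called over all genes tested was 13.1%, 5.18% higher and 7.91% lower.

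Dendritic classes had less than macrophages of several TNF superfamily ligand and receptor transcripts. Taking the mean of mature DC-like, cDC1-like and cDC2-like cells against the mean of macrophage-like and resident macrophage-like cells, 2 genes were called higher in dendritic cells and 10 lower, while 35.0% of all genes tested were called, 13% higher and 22.0% lower. The median log2 fold change was −1.02 over the 19 genes past the filter and −0.24 over all genes tested. Without scaling between the sums the median of all genes was −0.36, so falls are read relative to it. In epithelial-like cells against myeloid classes the same change moved the median of all genes to 0.68, against 0.26 as reported, and in fibroblast-like cells to 0.20, against 0.02. No called TNF superfamily gene turned its direction under any scaling.

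**Figure D3:**
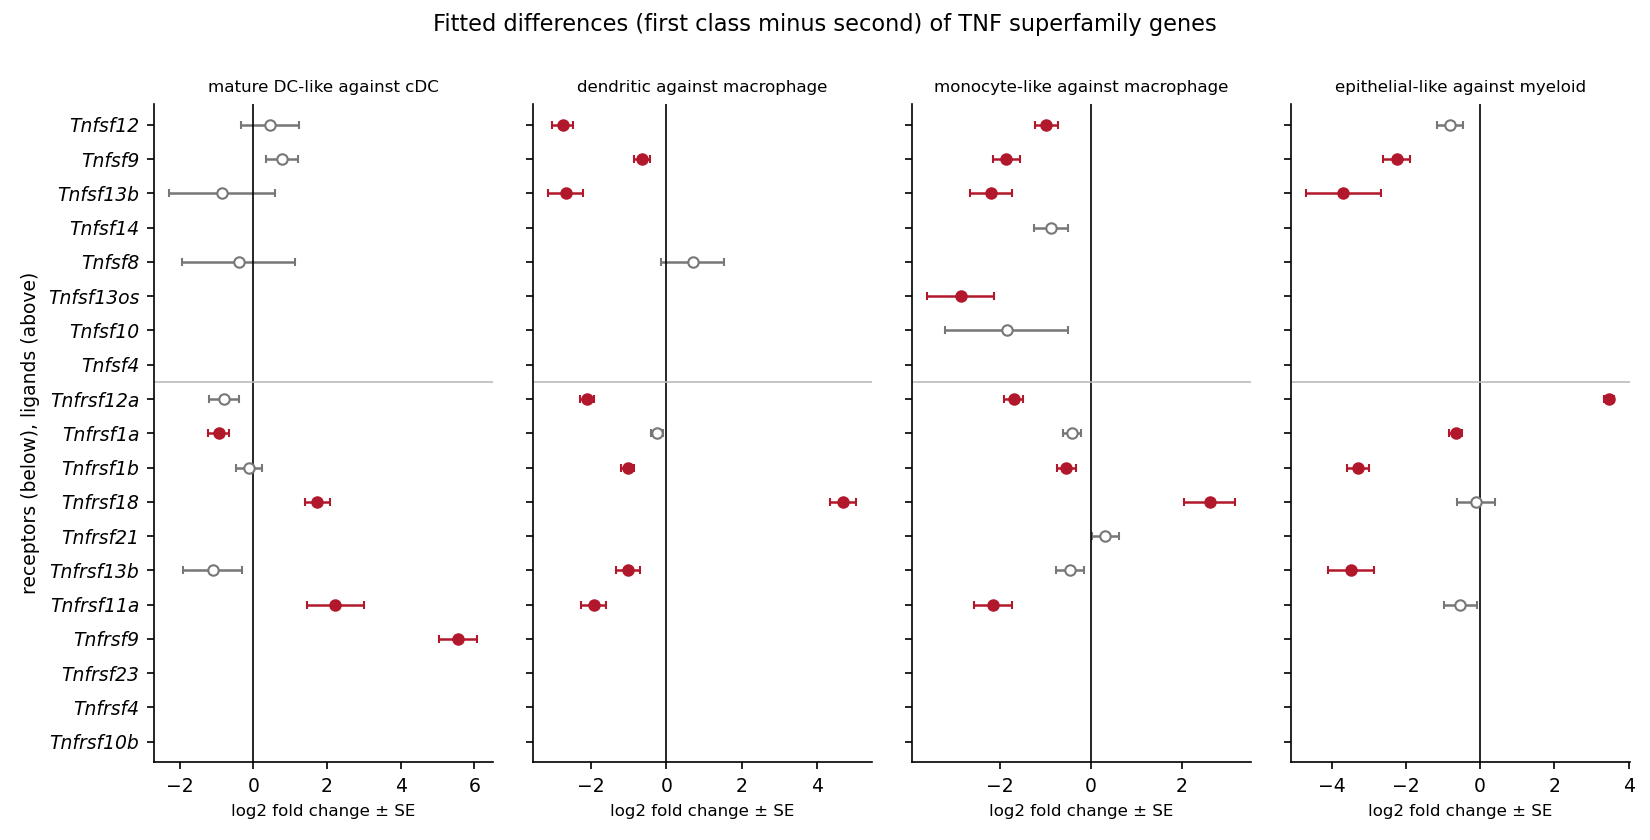
Fitted log2 fold change ± SE (first class minus second) of TNF superfamily genes in 4 comparisons. Filled red points passed an adjusted p of 0.05 and open grey points did not, and genes for which a class of the comparison had 0 UMIs, or which did not pass the filter, are left blank. Tnfrsf18 lies to the right of 0 in the first 3 panels, and Tnfsf13b to the left of 0 in the last 3.

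The genes higher in dendritic cells were receptors. Tnfrsf18 led by 4.70 on the log2 scale (SE 0.36, adjusted p = 1.02e-14), with 1.75 and 4.10 CPM in macrophage-like and 0.635 and 2.79 CPM in resident macrophage-like cells. Every dendritic library, at 24.7 CPM or more, was above every macrophage library. Tnfrsf9 had 64 UMIs in dendritic and 10 in macrophage classes, a pooled ratio of 13.6 (6.94 to 29.7, adjusted p = 0.00799). Mature DC-like cells held 48 of the 64 UMIs and cDC2-like cells 15. cDC1-like cells had 1 UMI (0.661 CPM over both libraries), against 1.30 CPM in macrophage-like cells, so they did not share the rise. Tnfrsf9 passed the filter on low counts only through mature DC-like and lymphocyte-like cells, so this call is read only beside the counts. For Tnfrsf4, with 86 UMIs in dendritic and 2 in macrophage classes (pooled ratio 91.5, 24.6 to 767), and for Tnfsf4, with 34 and 1, the fit returned no standard error and an adjusted p of 1, so neither gene was called. In each case 2 of the 5 classes had 0 UMIs.

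Among ligands, the largest fitted differences without a class at 0 were in TWEAK and BAFF. Tnfsf12 encodes TWEAK, a ligand of Fn14 in tissue repair, and its locus overlaps Tnfsfm13 and the antisense gene Tnfsf13os, so counts there are uncertain. It was at 3.41 and 23.1 CPM in mature DC-like, 2.24 and 8.03 CPM in cDC1-like and 9.37 and 13.6 CPM in cDC2-like cells, against 65.6 and 43.8 CPM in macrophage-like and 81.3 and 64.3 CPM in resident macrophage-like cells. All dendritic libraries lay below all macrophage libraries (log2 fold change −2.76, SE 0.28, adjusted p = 3.53e-11). Tnfsf13b was at 3.41 and 0 CPM in mature DC-like, 12.3 and 4.82 CPM in cDC1-like and 1.87 and 1.36 CPM in cDC2-like cells. In macrophage-like cells it reached 46.4 and 61.8 CPM and in resident macrophage-like cells 8.25 and 14.0 CPM, so the resident class overlapped cDC1-like cells (log2 fold change −2.68, SE 0.46, adjusted p = 6.51e-06).

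Tnfsf14 stood at 0 UMIs in mature DC-like cells, against 16.2 and 9.03 CPM in macrophage-like and 20.9 and 16.8 CPM in resident macrophage-like cells. Its call (adjusted p = 5.59e-05) came with cDC2-like levels of 18.75 and 12.95 CPM, inside the macrophage range. Over summed UMIs, 40 in dendritic and 137 in macrophage classes, the pooled ratio was 0.621 (0.425 to 0.889). Tnfsf13os was lower too (5 UMIs in dendritic, 93 in macrophage classes, pooled ratio 0.114, 0.0363 to 0.277, adjusted p = 5.04e-05). Tnfsf9 was called lower by 0.64 (SE 0.22, adjusted p = 0.0175), but its libraries overlapped and the call was lost in 5 of 11 alternatives.

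Among receptors, Tnfrsf12a, the gene of Fn14, was at 37.5 and 23.1 CPM in mature DC-like, 59.5 and 20.9 CPM in cDC1-like and 77.8 and 53.2 CPM in cDC2-like cells. It was at 234.3 and 139.0 CPM in macrophage-like and 318.7 and 139.8 CPM in resident macrophage-like cells, all above the dendritic libraries (log2 fold change −2.11, SE 0.18, adjusted p = 2.25e-13). Free RNA held 712.9 and 382.8 CPM of Tnfrsf12a, of which at most 3.51 to 12.8 CPM would fall in these classes. Tnfrsf11a, at 19.4 and 19.4 CPM in macrophage-like and 22.2 and 33.5 CPM in resident macrophage-like cells, differed by −1.935 (SE 0.34, adjusted p = 9.21e-06), and every dendritic library, at 17.35 CPM or less, lay below.

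Tnfrsf1b was lower in dendritic cells by 1.03 on the log2 scale (SE 0.17, adjusted p = 5.13e-06). Its dendritic libraries ran from 25.7 to 107.8 CPM and those of the macrophage classes from 122.8 to 126.3 CPM. Tnfrsf21 was lower as well, with 44 UMIs in dendritic and 194 in macrophage classes (pooled ratio 0.482, 0.34 to 0.672, adjusted p = 4.29e-04). Tnfrsf13b, encoding TACI, a receptor of BAFF and APRIL, had 6.82 and 5.78 CPM in mature DC-like, 6.73 and 14.5 CPM in cDC1-like and 14.1 and 23.2 CPM in cDC2-like cells, against 21.2 and 21.3 CPM in macrophage-like and 20.9 and 41.9 CPM in resident macrophage-like cells. The cDC2-like range overlapped the macrophage libraries (log2 fold change −1.02, SE 0.325, adjusted p = 0.0119), and the call was lost with a per-cell marker gate (adjusted p = 0.249). Tnfrsf1a did not pass (−0.24, SE 0.15, adjusted p = 0.236).

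**Figure D4:**
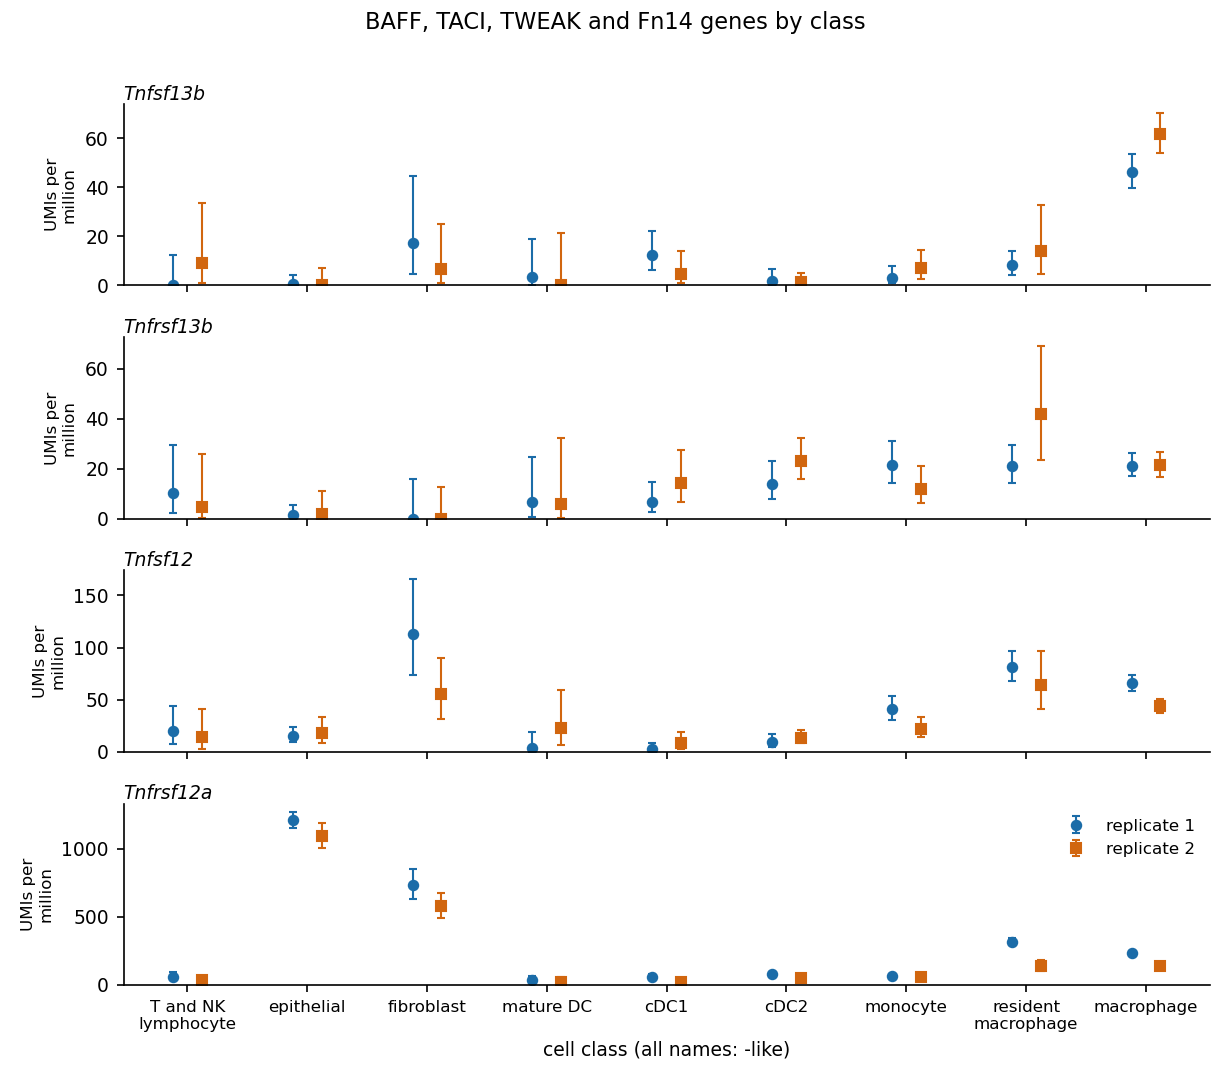
Level in CPM (linear axes) of BAFF (Tnfsf13b), its receptor TACI (Tnfrsf13b), TWEAK (Tnfsf12) and its receptor Fn14 (Tnfrsf12a) in 9 classes, with 1 point per library and 95% counting intervals. Tnfsf13b peaks in macrophage-like cells at 46.4 and 61.8 CPM, and Tnfrsf12a in epithelial-like cells at 1209 and 1097 CPM.

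The macrophage classes differed in BAFF, mainly through a single macrophage-like cluster described below. Resident macrophage-like cells had 8.25 and 14.0 CPM of Tnfsf13b (13 and 5 UMIs), against 46.4 and 61.8 CPM in macrophage-like cells (186 and 226 UMIs), without overlap (log2 fold change −2.53, SE 0.37, adjusted p = 2.21e-06). Tnfsf9 was higher in the resident class by 0.80 (SE 0.26, adjusted p = 0.035), with per-library differences of 1.09 and 0.36, and this call was lost in 4 of 10 alternatives. The other 17 genes past the filter were not called. Over all genes tested 10.9% were called, 5.37% higher and 5.50% lower, so the share of TNF superfamily genes called was near that of all genes. Without the library as a block, 286 genes were called in this comparison, against 514 with it, and of the TNF superfamily genes only Tnfsf13b.

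The macrophage-like class held 3 clusters, and Tnfsf13b was uneven among them. In the cluster led by Mmp12, Vcam1 and Apoe (212 and 224 cells) it was at 96.3 and 98.3 CPM. In the largest cluster, led by Il10, Clec4a1 and Clec12a (327 and 226 cells), it was at 24.0 and 24.9 CPM, and in the cluster led by Gpnmb and Spp1 (116 and 45 cells), which met 3 of 10 markers, at 22.4 and 19.5 CPM. Both libraries thus gave the same order for the first cluster above the other 2. Tnfsf9 ran differently, at 7.1 and 19.8 CPM in the Mmp12 cluster and 51.0 and 74.1 CPM in the Il10 cluster, while the libraries of the Gpnmb cluster disagreed at 17.0 and 65.0 CPM. Tnfsf14 was also higher in the Il10 cluster, at 30.1 and 16.6 CPM, against 5.5 and 5.3 CPM in the Mmp12 cluster. Tnfsf12 was highest in the Gpnmb cluster, at 98.4 and 60.7 CPM, against 40.1 to 55.3 CPM in the others. These values were not tested between clusters.

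Monocyte-like cells were lower than the macrophage classes in 7 genes and higher in 2, with 22.8% of all genes tested called, 10.3% higher and 12.5% lower. Tnfsf13b had 3.16 and 7.03 CPM in monocyte-like cells, below both macrophage classes (log2 fold change −2.20, SE 0.46, adjusted p = 3.01e-04). This call was lost with barcodes of at least 1000 UMIs, where the difference was −0.26 (adjusted p = 0.70), and at a Leiden resolution of 2.0. Tnfrsf12a (64.9 and 61.2 CPM in monocyte-like cells, −1.69, SE 0.215, adjusted p = 4.25e-08), Tnfsf9 (11.1 and 16.1 CPM, −1.85, SE 0.30, adjusted p = 6.67e-06) and Tnfrsf11a (2.37 and 8.03 CPM, −2.16, SE 0.42, adjusted p = 1.12e-04) were below both macrophage classes in both libraries.

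Tnfsf12, at 41.1 and 22.1 CPM in monocyte-like cells, was lower by 0.97 (SE 0.25, adjusted p = 0.00347, 0.0721 in DESeq2), and Tnfsf13os, on 3 UMIs, had a pooled ratio of 0.137 (0.0278 to 0.413, adjusted p = 0.00345), lost in 2 of 10 alternatives. Tnfrsf1b was lower by 0.53 (SE 0.20, adjusted p = 0.0489), and 5 of 11 alternatives lost that call. Higher were Tnfrsf18, at 15.8 and 6.02 CPM in monocyte-like cells and above every macrophage library (2.62, SE 0.57, adjusted p = 4.55e-04), and Tnfrsf9 (9 UMIs against 10, pooled ratio 3.82, 1.37 to 10.5, adjusted p = 0.0193; 0.0501 at a Leiden resolution of 2.0). Tnfsf8 had 0 UMIs in monocyte-like cells of both libraries and 57 in the macrophage classes, and did not pass (adjusted p = 0.0533). Against a floor of 3 counts over both libraries it was at least 4.47-fold lower.

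Epithelial-like cells were set apart by Fn14. Tnfrsf12a reached 1209 and 1097 CPM in epithelial-like cells (1631 and 557 UMIs), above every library of the other 8 classes, and exceeded the mean of the 6 myeloid classes by 3.47 on the log2 scale (SE 0.14, adjusted p = 4.06e-24). The genes of the death ligand TRAIL and of its mouse receptor were both called higher, on few molecules. Tnfrsf10b passed the filter on low counts only through epithelial-like and fibroblast-like cells, and Tnfsf10 only through lymphocyte-like and epithelial-like cells. Both calls were kept without that filter and are read only beside the counts. Tnfsf10 had 11.1 and 9.85 CPM in epithelial-like cells (pooled ratio 9.80, 4.92 to 19.6, adjusted p = 1.67e-04), and Tnfrsf10b, the TRAIL receptor DR5, had 4.45 and 19.7 CPM (16 UMIs, against 7 in the myeloid classes, pooled ratio 20.2, 7.85 to 57.9, adjusted p = 3.12e-04). The class held 2 clusters. Tnfsf10 was at 23.2 and 45.2 CPM in the smaller one (13 and 6 cells, 6 and 4 UMIs). It was at 8.26 and 2.39 CPM in the larger (97 and 36 cells, 9 and 1 UMIs), which held all 16 Tnfrsf10b UMIs. There Tnfrsf10b was at 5.50 and 23.9 CPM. Its 0 UMIs in the smaller cluster allow up to 14.25 and 41.67 CPM, so a difference between the clusters is not shown. Tnfrsf21 stood at 33.4 and 25.6 CPM in epithelial-like cells (pooled ratio 1.72, 1.27 to 2.28, adjusted p = 0.00574), and Tnfsf13os at 6.67 and 13.8 CPM (1.40, 0.769 to 2.38, adjusted p = 0.0103). For Tnfrsf21 these libraries overlapped the resident macrophage-like and monocyte-like ones, and for Tnfsf13os those of both macrophage classes. Neither gene was thus above every myeloid class, and the Tnfsf13os interval included 1.

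Lower in epithelial-like cells were Tnfrsf1b, at 13.3 and 3.94 CPM (−3.29, SE 0.30, adjusted p = 1.70e-12), and Tnfsf9, at 9.63 and 3.94 CPM (−2.25, SE 0.36, adjusted p = 1.25e-06). Tnfrsf13b and Tnfsf13b, with 3 and 1 UMIs, had pooled ratios of 0.0835 (0.0171 to 0.246, adjusted p = 6.68e-06) and 0.0192 (4.84e-04 to 0.107, adjusted p = 0.00183). The Tnfsf13b call was lost with barcodes of at least 1000 UMIs and with a per-cell gate, and the Tnfsf13os call was lost with barcodes of at least 1000 UMIs (adjusted p = 0.0707). Tnfrsf1a was lower by 0.66 (SE 0.18, adjusted p = 0.00218), a difference of −0.24 (adjusted p = 0.238) without scaling between the sums. These 11 calls, 6 higher (Tnfrsf11b among them) and 5 lower, stand beside 53.3% of all genes tested, 33.6% higher and 19.6% lower.

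Fibroblast-like cells expressed both Fn14 and TWEAK. Tnfrsf12a was at 735.3 and 578.4 CPM in fibroblast-like cells (log2 fold change 2.91 against the myeloid classes, SE 0.17, adjusted p = 8.87e-19), below the epithelial-like libraries and above the remaining classes. Tnfsf12 was at 113.1 and 55.4 CPM (26 and 16 UMIs; 1.80, SE 0.34, adjusted p = 2.80e-05), a range that overlapped both macrophage classes. Osteoprotegerin, the soluble decoy receptor of RANK ligand encoded by Tnfrsf11b, had 4 and 8 UMIs in fibroblast-like cells (17.4 and 27.7 CPM) and 2 and 6 in epithelial-like cells. It had 0 UMIs in the 6 myeloid classes and in lymphocyte-like cells. Tnfrsf11b therefore passed the filter on low counts only through the classes in which it was found, and its calls in them, both lost with DESeq2, are not read as a difference.

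Tnfrsf1a was higher in fibroblast-like cells, at 256.7 and 200.9 CPM (0.73, SE 0.20, adjusted p = 0.00305), while Tnfrsf1b was lower at 30.5 and 34.6 CPM (−1.43, SE 0.35, adjusted p = 9.64e-04). Tnfrsf13b and Tnfrsf11a had 0 UMIs in fibroblast-like cells, against 317 and 227 in the myeloid classes, and were called lower (adjusted p = 0.00163 and 0.016), at least 3.35-fold and 2.40-fold against a floor of 3 counts over both libraries. The Tnfrsf11a call was lost with a per-cell marker gate (adjusted p = 0.13). With 4 genes called higher, Tnfrsf11b among them, and 3 lower, the share over all genes tested was 35.9%, 21.6% higher and 14.4% lower.

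The TNF receptors thus had unlike ranges. Tnfrsf1a ordered as fibroblast-like, resident macrophage-like, cDC1-like, macrophage-like, cDC2-like, monocyte-like, epithelial-like, lymphocyte-like and mature DC-like cells by mean level. Its libraries ran from 69.4 to 256.7 CPM, and neighbours between resident macrophage-like and cDC2-like cells overlapped. Tnfrsf1b ran from 3.94 CPM in an epithelial-like library to 126.3 CPM in a resident macrophage-like one. Lymphocyte-like cells had 104.5 and 116.4 CPM of Tnfrsf1b, overlapping cDC2-like but not macrophage-like cells.

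Some counts of this family are uncertain by position. Tnfsf12 and Tnfsf13 (chromosome 11, minus strand, 69686250 to 69695849 and 69682846 to 69685784) both overlap the read-through gene Tnfsfm13 on the same strand, and Tnfsf13os lies antisense to them at 69682138 to 69691141. Tnfsf13, which encodes APRIL, had 2 UMIs in all and Tnfsf13os had 125, and whether the counting used strand is not given in the sources used here. Tnfrsf22, Tnfrsf23 and Tnfrsf26 sit side by side on chromosome 7. Of the 50-base words in the last 500 bases of Tnfrsf22 and Tnfrsf23 transcripts, 10.0% of those of Tnfrsf22 and 22.4% of those of Tnfrsf23 occur in the other. Tnfrsf23, a decoy receptor of TRAIL in mice, was at 0 to 11.8 CPM in the 9 classes. On chromosome 4 lie 9 of the 32 genes. Tnfrsf9 overlaps Camta1, and Tnfrsf18 overlaps Gm16008, on the opposite strand.

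A list of 15 further superfamily genes with older names, such as Tnf, Cd40 and Fas, gave 9 past the filter. Between mature DC-like cells and cDC, 4 were higher and 0 lower (median log2 fold change 1.01, against −0.16 over all genes tested), beside 7.72% of all genes tested higher and 7.25% lower. Cd40, through which T cells license dendritic cells, was at 429.6 and 346.9 CPM in mature DC-like cells, against 26.9 and 19.3 CPM in cDC1-like and 77.8 and 52.5 CPM in cDC2-like cells (3.27, SE 0.23, adjusted p = 3.70e-15). Cd70, the ligand of CD27, was at 51.1 and 81.0 CPM in mature DC-like cells and had 6 UMIs in cDC, all cDC2-like (pooled ratio 42.0, 17.1 to 124, adjusted p = 5.50e-07). Of the classes compared, only mature DC-like cells, with 29 UMIs, could carry Cd70 past the filter on low counts. Its adjusted p-value is therefore read only beside the counts. Fas (3.53, SE 0.38, adjusted p = 1.35e-09) and Tnf itself (1.11, SE 0.325, adjusted p = 0.0134) were higher too.

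Tnf was lower in dendritic than in macrophage classes by 2.61 (SE 0.16, adjusted p = 1.29e-17), at 17.7 to 88.6 CPM in dendritic libraries and 173.3 to 490 CPM in macrophage ones. In that comparison Ltb (3.52, SE 0.78) and Cd40 (0.49, SE 0.17) were higher and Ltbr (−1.22, SE 0.28) was lower, beside 35.0% of all genes tested called. Over both libraries Cd40 was at 398.9 CPM in mature DC-like, 63.1 CPM in cDC2-like and 23.8 CPM in cDC1-like cells. The macrophage classes were at 59.5 CPM, so cDC1-like cells lay below them. Of 77 dendritic Ltb UMIs, 67 were in cDC2-like and 3 in cDC1-like cells. cDC1-like cells were below cDC2-like cells in 4 genes and above in 0 (13.1% of all genes tested called), namely Ltb (−3.67, SE 0.69), Fas (−3.43, SE 0.55), Cd40 (−1.53, SE 0.31) and Tnf (−1.22, SE 0.315). Tnf (−2.85, SE 0.22) and Cd40 (−1.44, SE 0.255) were lower in monocyte-like than in macrophage cells, and Relt (1.33, SE 0.44) and Fas (1.075, SE 0.29) were higher in resident macrophage-like than in macrophage-like cells. In lymphocyte-like cells 3 of the 9 were higher (Fasl, Ltb and Cd27) and 2 lower. Fasl had 32 UMIs in lymphocyte-like cells and 2 in the myeloid classes, which could not carry it past the filter. The Fasl call is therefore read only beside these counts. Epithelial-like cells had 2 higher and 4 lower, and fibroblast-like cells 1 higher (Ltbr, 1.58, SE 0.33) and 3 lower. Over all genes tested 18.3% were called in lymphocyte-like, 53.3% in epithelial-like and 35.9% in fibroblast-like cells. Cd27 was among those higher in epithelial-like cells (2.455, SE 0.46), at 13.3 and 29.55 CPM.

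Of 28 receptor adaptors and NF-κB pathway genes, 27 passed the filter. In mature DC-like cells 13 were higher than in cDC and 0 lower (median 0.98, against −0.16 over all genes tested), while 7.72% of all genes tested were higher and 7.25% lower. Relb, the NF-κB subunit of the non-canonical pathway, was at 453.4 and 537.7 CPM in mature DC-like cells, against 34.8 and 14.5 CPM in cDC1-like and 96.6 and 64.8 CPM in cDC2-like cells (3.38, SE 0.21, adjusted p = 9.83e-17). Birc2, encoding the ubiquitin ligase cIAP1, followed with 238.7 and 208.2 CPM in mature DC-like cells (3.35, SE 0.27, adjusted p = 4.00e-13), and Traf3 (2.03, SE 0.45) and Tank (1.75, SE 0.25) were higher as well. In cDC1-like against cDC2-like cells 0 were higher and 15 lower (median −1.14, against −0.02; 5.18% and 7.91% of all genes tested), led by Rel (−2.26, SE 0.25) and Nfkb1 (−2.22, SE 0.27), both NF-κB subunits.

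Dendritic against macrophage classes gave 12 higher and 5 lower (13% and 22.0% of all genes tested), with Traf4 (4.77, SE 0.49) and Traf1 (3.20, SE 0.19), which are receptor adaptors, and Map3k14, the NF-κB inducing kinase (2.41, SE 0.185), leading. Traf1 was at 702.3 and 1081 CPM in mature DC-like cells, against 50.4 and 61.3 CPM in macrophage-like cells. Monocyte-like cells had 2 higher (Traf1, Rel) and 2 lower (Cflar, Tank) than macrophages, and resident macrophage-like cells 2 higher, among them Birc3, and 3 lower (Tnip1, Nfkbie, Traf3) than macrophage-like cells, where 22.8% and 10.9% of all genes tested were called in either direction. Lymphocyte-like cells had 2 higher and 7 lower than the myeloid classes, epithelial-like cells 2 and 20, and fibroblast-like cells 1 and 8. Over all genes tested 18.3%, 53.3% and 35.9% were called in these 3 comparisons, so the share of the 27 called in fibroblast-like cells was near that of all genes. Epithelial-like cells were lowest relative to myeloid classes in Nfkbie (−3.48, SE 0.29), Rel (−3.34, SE 0.26) and Traf1 (−3.29, SE 0.30).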

How the data were processed

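For each of 2 libraries the authors deposited a matrix of unnormalized UMI counts (27998 genes by 737280 barcodes), made with Cell Ranger 2.2.0 on mm10, per the submitters' processing notes. Neither the aligner settings nor the release of the gene annotation is given in the sources used here.

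Barcodes were called as cells above the 99th percentile of the top 3000 divided by 10 (2112 and 1905 UMIs). Cells with under 200 genes (0 and 1) or over 10% mitochondrial UMIs (83 and 90) were dropped. The 32 and 14 cells with the highest Scrublet doublet scores were also removed, numbers set by an assumed doublet rate of 0.8% per 1000 called barcodes. The TNF superfamily genes, the pathway lists and a random 50% of the other genes (13945 in all) were kept out of clustering. The other 14053 gave 2000 variable genes, 30 components and Leiden clusters (resolution 1.0; scanpy 1.11.5). A cluster took a class name from at least 3 markers raised by a log2 fold of 1 in at least 20% of cells. The members, lists and tests were chosen with earlier results of these data known.

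UMI counts were summed per class and library, and 10 classes (20 sums, 9 residual degrees of freedom) entered 1 fit in edgeR 4.0.16 (R 4.3.3): quasi-likelihood test, TMM scaling, the library as a block because all classes of a library share a capture, and Benjamini-Hochberg adjustment over the 4730 genes tested. Groups of classes are unweighted means of log2 levels. The fit was tested on simulated data. CPM values are unscaled. Genes with at least 30 UMIs, or called with 1 sign across the libraries, are described with their values, and from each pathway list up to 4 called genes per comparison with the largest change. Alternatives included DESeq2 1.42.0. Positions are from GENCODE and promoters from RefSeq; 24 of 32 genes had a promoter entry. A narrower κB pattern was searched first and matched the same window alone.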

Additional observations from a re-analysis of the deposited data

Results flagged for a closer look

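Endothelial-like and neutrophil-like cells had too few cells for the comparisons, and their levels are given as values with exact 95% counting intervals. In 10 endothelial-like cells of replicate 1, Tnfrsf12a stood at 574.3 CPM (40 UMIs, 410.3 to 782.1), and in 5 cells of replicate 2 at 255.2 CPM (5 UMIs, 82.86 to 595.5). Tnfrsf1a was at 215.4 CPM (15 UMIs) and 255.2 CPM (5 UMIs) in the same cells, and Tnfsf12 at 57.43 CPM in replicate 1 (4 UMIs, 15.65 to 147.1). The 16 neutrophil-like cells, all of replicate 2, held Tnfrsf1a at 300.3 CPM (12 UMIs, 155.2 to 524.5) and Tnfrsf1b at 200.2 CPM (8 UMIs, 86.43 to 394.5). Tnfrsf23, a mouse decoy receptor of TRAIL, was at 175.2 CPM there (7 UMIs, 70.43 to 360.9), while no library of the 9 compared classes exceeded 11.82 CPM. Each of these values lay above the level that 3 counts would give in its class and library.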

How the results depend on the processing

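Of 61 called results for TNF superfamily genes, over 19 distinct genes, 39 were kept in every alternative with a value, 22 were lost in at least 1, and none turned its direction. DESeq2 in place of edgeR lost 13 of 61, barcodes with at least 1000 UMIs 9 of 60, Leiden resolution 2.0 7 of 59, a per-cell marker gate 7 of 52, no replicate block 6, no doublet removal 3, no filter on low counts 2, no scaling beyond the UMI total 2, DESeq2 size factors in edgeR 1, omission of the macrophage-like cluster that met 3 markers 1, and a minimum of 20 cells 0. The no-scaling and omitted-cluster alternatives were chosen after seeing the data. With DESeq2, 3 genes were called between cDC1-like and cDC2-like cells, against 6. At Leiden resolution 2.0, 696 of all genes were called between monocyte-like and macrophage cells, against 1077. Between resident macrophage-like and macrophage-like cells, 286 of all genes were called with no replicate block, against 514, and 1 TNF superfamily gene, against 2, with DESeq2, with no replicate block and without that cluster. In each comparison the cause was not tested. The gate gave no resident macrophage class. Leaving out either library left no residual degrees of freedom and so no test, and the sign was kept in 61 of 61. Depth limits the rarer genes: in mature DC-like cells 3 counts amount to 10.23 and 17.35 CPM.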

Other observations

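Clusters outside the compared classes also held TNF superfamily ligands, and the values here were chosen after they were seen. Tnfsf13b was at 78.6 and 95.2 CPM in an unnamed cluster led by Cxcl9, Dnase1l3 and Gbp2b, which had 56 and 4 cells. Among cycling cells, Tnfsf13b stood at 89.6 and 89.9 CPM in one cluster (43 and 32 cells) and at 14.3 and 4.76 CPM in another (47 and 33 cells). Tnfsf9 was at 67.2 and 71.7 CPM in an unnamed cluster with Cd7 and Siglech among its leading genes (28 and 25 cells), in which Tnfsf12, Tnfsf13b and Tnfsf14 had 0 UMIs in both libraries.

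Among genes with fewer than 30 UMIs, Tnfrsf17, the gene of the BAFF and APRIL receptor BCMA, had 11 and 3 of its 17 UMIs in resident macrophage-like cells (6.98 and 8.39 CPM). Tnfsf11, the gene of RANK ligand, had 2 and 4 UMIs in lymphocyte-like cells and 8 in epithelial-like cells of replicate 1.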
